A study of Mus musculus with 4 samples.

Results

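The proteasome genes were taken as all protein-coding genes of the table whose symbol begins with Psma to Psmg followed by a digit, which gave 51 genes among 55487. They comprised 8 genes of the alpha subunits and 11 of the beta subunits of the 20S core, 6 ATPase and 14 non-ATPase genes of the 19S cap, 5 activator genes, and 5 others (the inhibitor Psmf1 and the assembly chaperones Psmg1 to Psmg4). The remaining 2, Psmc3ip and Psme3ip1, are named for binding a subunit and encode no part of the particle. Levels were given in TPM, transcripts per 1000000 transcripts, in primary neural stem cells grown with bFGF and EGF from embryonic mouse neocortex. The control was a Tut1f/f culture that received empty lipid nanoparticles (LNP). The cultures labelled Tut1 KO (Tut1f/f), Trp53 KO (p53f/f) and double KO (Tut1f/f;p53f/f) received LNP with mRNA for Cre recombinase, which cuts out DNA between loxP sites, for 3 days. All 4 cultures carried floxed alleles, so none was free of them. The p53f/f and Tut1f/f;p53f/f cultures were of other floxed lines than the control. Where 4 values follow a gene, the control comes first, then the library labelled Tut1 KO, then Trp53 KO and last the double KO. Each group was 1 library, so no difference had an error and none was tested.

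The proteasome is the protease that destroys proteins tagged with ubiquitin, and it also makes peptides that cells display on class I molecules. Its 20S core is a barrel of alpha and beta rings in which some beta subunits cut, and the 19S cap binds the tagged protein, removes ubiquitin, unfolds the chain with its ATPase ring and feeds it into the barrel. Subunit genes are transcribed by Nfe2l1, a factor that binds antioxidant response elements and is itself degraded by the proteasome, and p53, the protein that Trp53 encodes, is among the best known proteins that the proteasome removes.

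Promoter sequences were examined for the core of the antioxidant response element, since subunit genes are known to be driven through it. RefSeq windows (GRCm38.p6) from 250 bases before to 50 after a start site were held for 43 of the 51 genes. Psma8, Psmb1, Psmb2, Psmb7, Psmc3, Psmd3, Psmd7 and Psmg2 had none. The core TGACNNNGC was found on either strand in 6 of 43 genes (14.0%) and in 3781 of 27025 genes with a window (14.0%). The 6 matches are shown 5′ to 3′ on the strand of the gene with up to 10 bases on each side, and capitals mark the core or its reverse complement.
Psmb5, chr14:54618024-54618052, minus strand: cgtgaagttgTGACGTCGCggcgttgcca
Psmb6, chr11:70525338-70525366, plus strand: ctaaagagagTGACGGAGCgctttacgac
Psmc6, chr14:45329587-45329615, plus strand: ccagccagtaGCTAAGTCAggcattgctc
Psmd9, chr5:123228149-123228177, plus strand: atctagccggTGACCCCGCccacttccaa
Psmd12, chr11:107479278-107479299, plus strand: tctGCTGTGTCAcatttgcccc
Psme4, chr11:30771758-30771786, plus strand: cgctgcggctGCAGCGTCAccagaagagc

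The first base of the core lay at -47 from the start in Psmb5, at -9 in Psmb6, at -227 in Psmc6, at -31 in Psmd9, at -247 in Psmd12 and at -7 in Psme4. Psmb5 and Psmb6 encode catalytic beta subunits and Psmc6 an ATPase of the 19S ring. The CCAAT box, searched as CCAAT on either strand, was present in 16 of 43 proteasome genes (37.2%) against 41.1% of all genes with a window. Its match before Psmb9 is printed because the start sites of Psmb9 and Tap1, a gene pair on opposite strands taken up again with the induced subunits, lie 225 bases apart. Psmb3, the constitutive subunit gene with the largest difference in the library labelled Tut1 KO, held a pair of boxes, shown with it. A pair of matches or more was also held by Psma1, Psma3, Psma6, Psmd4, Psmd10, Psmd14 and Psme3ip1, not printed. Whether the boxes relate to the levels was not tested.
Psmb9, chr17:34187324-34187348, minus strand: gcagccgctgATTGGaaagccgagc
Psmb3, chr11:97703339-97703363, plus strand: gcatgagtgtCCAATagaaagctga
Psmb3, chr11:97703381-97703405, plus strand: ggcccgccagCCAATggggaggatt

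These letters are descriptions of the reference sequence. Factor binding was not measured in these libraries.

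Before the proteasome genes were compared, the targeted genes, the sex-linked genes and the cell type markers were examined. Tut1 had 12.2, 29.8, 12.5 and 13.7 TPM, and was thus not lower in either library labelled as lacking it. By the study's description, Cre removes 1 exon of its mRNA, and the TPM of the whole gene does not measure that exon, so these values check neither label. Trp53 was lower in both libraries labelled as lacking it (39.7 and 41.9 TPM) than in the others (119.9 and 100.4 TPM). Every direction below that involves the library labelled Tut1 KO or the double KO library rests on its label. Xist had 188 and 204 TPM in the single KO libraries and under 0.1 TPM in the other pair, whereas Ddx3y, on chromosome Y, was listed at 0 in the single KO libraries and had 24.4 and 25.7 TPM in the other pair. All 4 comparisons therefore also set libraries of opposite sex-linked expression against each other, and sex and genotype cannot be told apart. The labelled cell type was matched by its markers, as all 8 neural stem cell markers had at least 10 TPM in every library, all 5 microglia and blood markers and all 4 endothelial and mesenchymal markers were under 1 TPM, summed neuronal markers ranged from 164 to 238 TPM and summed oligodendrocyte markers from 4.50 to 8.36 TPM. In bulk RNA of this kind, fewer cells of a type and less RNA per cell cannot be told apart.

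The proteasome genes were abundant in all 4 libraries. They summed to 7976, 8208, 7777 and 8273 TPM, which is 0.798%, 0.821%, 0.778% and 0.827% of all TPM. A level of at least 10 TPM in at least 1 library, the minimum set for comparing a gene, was reached by 9314 genes of the table, called the genes compared, and by 47 of the 51 proteasome genes. The 4 below it were Psma8, the germ-cell alpha subunit, Psmb11, the subunit of the thymus cortex, and Psmb8 and Psmb9, which replace catalytic subunits in immune cells. All levels given are TPM and therefore per transcript length.

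**Figure D1:**
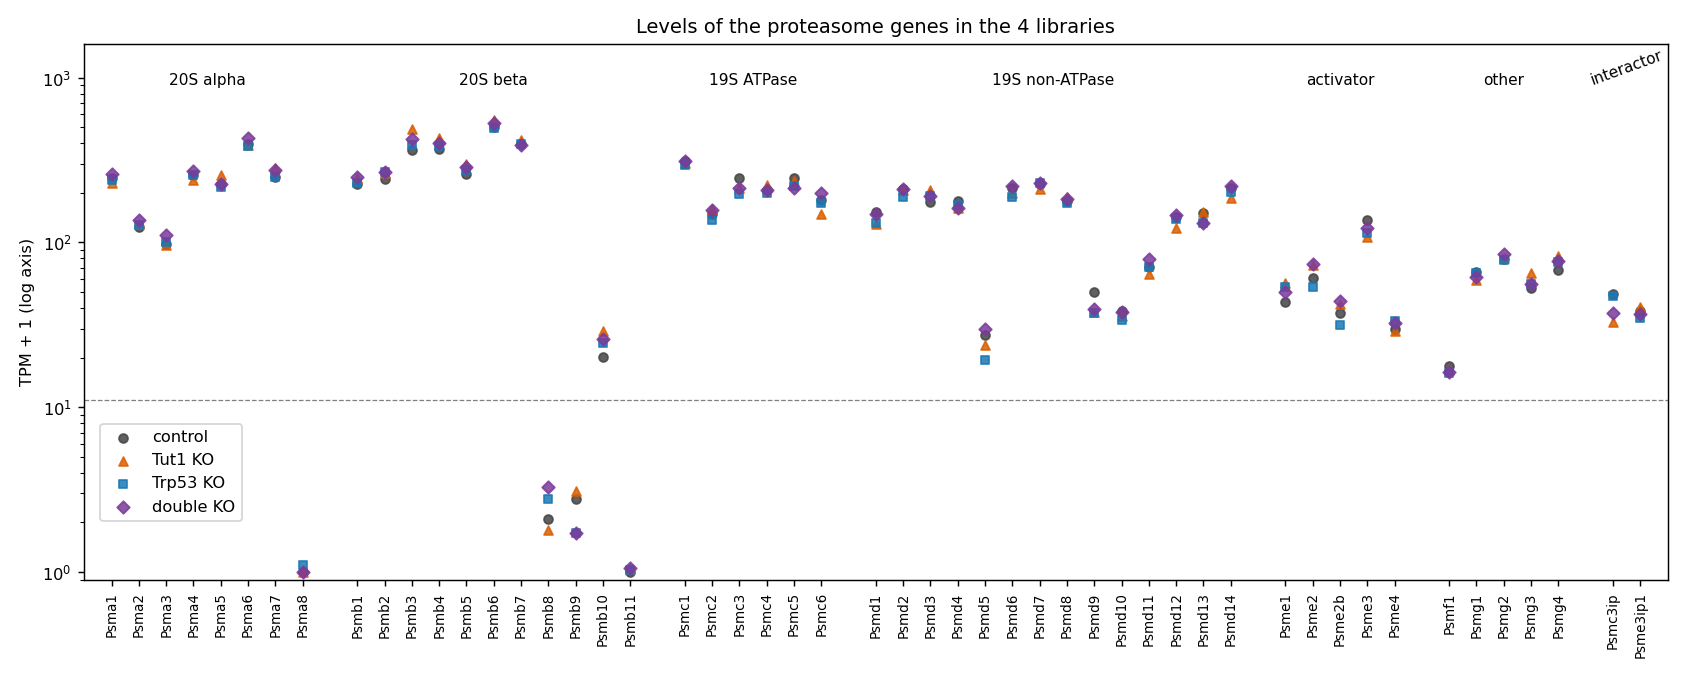
Level of each of the 51 proteasome genes as TPM + 1 on a log axis, grouped by class, with 1 point per library and the 10 TPM minimum as a dashed line. The 4 points of most genes lie close together, most constitutive core and cap genes sit near or above 100 TPM, and Psma8, Psmb8, Psmb9 and Psmb11 lie under the minimum.

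Within the alpha ring, the highest and the lowest of the 7 constitutive genes differed about as much in every library. Psma6 had 395, 391, 383 and 431 TPM. Psma3 had 97.4, 95.9, 99.8 and 109.7 TPM. Each alpha protein is known to occupy the ring in equal number, whereas the transcript levels differed between genes. Psma7, the alpha subunit best known for binding other regulators, had 249.9, 282, 247 and 275 TPM. Psma8 was listed at 0 in 3 libraries and at 0.0963 TPM in the Trp53 KO library.

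The beta ring held the most abundant transcript of all proteasome genes. Psmb6, whose protein carries the caspase-like site, had 497, 553, 493 and 532 TPM. Of the other catalytic genes, Psmb7 (trypsin-like site) was at 393, 419, 394 and 388 TPM and Psmb5 (chymotrypsin-like site) at 260.0, 299.6, 272 and 287 TPM. The lowest level of any constitutive beta gene in any library was 225 TPM, in Psmb1, a structural subunit.

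The 6 ATPase genes lay within a narrower band than the core genes. Psmc1 was highest, with 309.5, 301, 293 and 310.3 TPM, and Psmc2 lowest on average, with 147, 157, 136 and 157 TPM. Both encode members of the ring that threads the unfolded chain. None of the 6 was under 136 TPM in any library.

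The 14 Psmd genes divided by role. The 8 lid genes ranged from 63.0 to 229 TPM over all libraries and the 3 base genes Psmd1, Psmd2 and Psmd4 from 127 to 211 TPM. The 3 genes whose proteins chaperone assembly of the base and are absent from the finished particle, Psmd5, Psmd9 and Psmd10, stood apart at 18.4 to 48.8 TPM and were the lowest 3 of the class. This grouping by role was made after the levels had been seen. Psmd7, a structural lid subunit, was highest with 226, 209.6, 228 and 229 TPM. Psmd14, the lid enzyme that cuts ubiquitin off the substrate, had 213, 185, 202 and 218 TPM. The ubiquitin receptor Psmd4 had 177, 161, 168 and 161 TPM, and Psmd2, which docks carriers of ubiquitin-tagged proteins, had 211, 206, 188 and 209.9 TPM. For Psmd7, Psmd14, Psmd4 and Psmd2, the 4 libraries lay within 1.5-fold of each other.

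The order of levels was nearly the same in each library. Over the 35 compared core and cap genes, Spearman's rho between the levels of any 2 libraries was 0.960 to 0.983, a description over genes that share their libraries and their base composition. Each gene's highest and lowest library were then compared. The median range of the 47 proteasome genes was 1.15-fold on TPM + 1, against 1.31-fold for all genes compared. A range of 1.5-fold or more was seen in 1 of the 47 (2.13%), Psmd5, and in 24.4% of all genes compared. Abundant genes ranged less in general. Among genes with a mean of at least 100 TPM, 246 of 1549 (15.9%) and none of 31 proteasome genes reached 1.5-fold, and the medians were 1.25-fold and 1.14-fold. The 31 genes of the CCT chaperonin, the COP9 signalosome and eIF3, complexes also built of many different subunits, had a median of 1.20-fold with 1 gene at or past 1.5-fold, and their median Tut1 KO minus control differences were -0.01, 0.01 and 0.08. Whether the proteasome genes differ from these complexes was not tested.

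**Figure D2:**
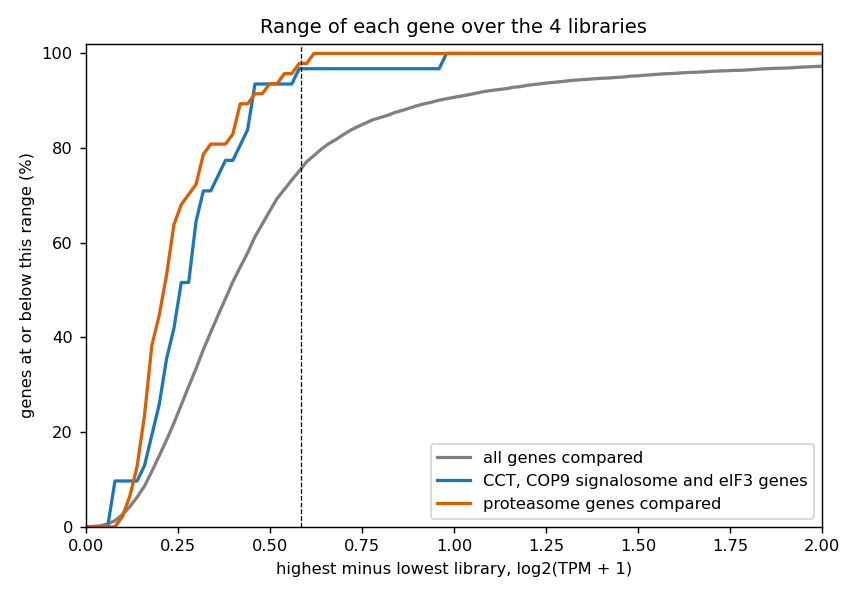
Share of genes (%) whose highest minus lowest library in log2(TPM + 1) is at or below the value on the x axis, for 9314 genes compared, 31 genes of the compared complexes and 47 proteasome genes, with 1.5-fold dashed. At 1.5-fold 24.4% of all genes compared but only 1 proteasome gene, Psmd5, lie beyond.

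The library of highest and of lowest level was counted for each gene. Of the 47 genes, 17 had their highest level in the library labelled Tut1 KO, 17 in the double KO library, 2 in the Trp53 KO library and 11 in the control, which is 36.2%, 36.2%, 4.26% and 23.4%. Over all genes compared the shares were 23.1%, 27.7%, 19.6% and 29.6%. The lowest level was in the Trp53 KO library for 19 genes, in the Tut1 KO library for 14, in the control for 11 and in the double KO library for 3, which is 40.4%, 29.8%, 23.4% and 6.38%, against 24.3%, 41.1%, 17.5% and 17.1% of all genes compared. Whether the shares differ was not tested. These counts take no account of the size of the differences, most of which were small.

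Tut1 KO minus control addresses deletion of Tut1 while Trp53 is intact, while the cultures also differed in what the LNP held. No proteasome gene reached 1.5-fold in either direction (0 of 47), where 12.3% of all genes compared did, and none reached 2-fold, where 4.20% did. The library labelled Tut1 KO was higher for 23 of 47 proteasome genes, against 39.2% of all genes, and the median difference in log2(TPM + 1) was -0.01 against -0.09 over all genes. The sign of the proteasome median turned when the median of all genes was set to 0 (0.08) and gives no direction. 

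Within that comparison the beta ring and the cap lay on opposite sides of 0. All 8 compared beta genes were higher in the library labelled Tut1 KO (median 0.18), 3 of 7 alpha genes were (median -0.01), 2 of 6 ATPase genes (median -0.05) and 3 of 14 non-ATPase genes (median -0.12). Activators had a median of 0.17 (3 of 5 higher) and the inhibitor with the core chaperones 0.03 (3 of 5 higher). With the GC and length trend removed these medians were 0.05 and -0.05. Psmb3, a structural beta subunit, had the largest difference among constitutive core and cap genes. It lies at chr11:97703399-97713500 (GRCm38). Its levels were 364, 484, 386 and 424 TPM, a difference of 0.41. Psmb4, also structural, had 367, 431, 385 and 401 TPM, a difference of 0.23. In both genes the control was the lowest library and the library labelled Tut1 KO the highest. The 8 of 8 became 5 of 8 (median 0.06) once the trend with GC content and transcript length was removed, and was still 8 of 8 when medians were set to 0, under quantile normalization and without mitochondrial and ribosomal genes. With medians set to 0, 7 of 7 alpha genes (median 0.08) and 4 of 6 ATPase genes (median 0.04) were higher, so the sign of those classes is not fixed, while the non-ATPase median was -0.03 with 5 of 14 higher.

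On the other side, the lower values in the library labelled Tut1 KO were led by Psmc3ip, whose protein acts in meiotic recombination, with 47.6, 31.7, 46.5 and 36.0 TPM and a difference of -0.57, just inside 1.5-fold (0.58 on the log2 scale). It encodes no proteasome subunit. Psmd9, a base chaperone, had 48.8, 36.9, 36.5 and 38.4 TPM, a difference of -0.40, with the control above all 3 Cre-treated libraries. Psmc6, an ATPase whose promoter core is printed above, had 179.8, 148, 172 and 197 TPM, a difference of -0.28, and Psmd1, the large scaffold of the base, had 152, 127, 130.1 and 147 TPM, a difference of -0.25. The library labelled Tut1 KO was the lowest of the 4 for Psmc6 and Psmd1.

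The ratio of core to cap transcripts was also taken, with alpha and beta genes pooled in the core. For Tut1 KO against control, the log2 ratio of summed TPM was 0.03 in constitutive alpha and 0.20 in constitutive beta genes. The sums were not corrected for the trend with GC content and length. Constitutive core genes summed to 3936, 4317, 3994 and 4251 TPM. The 20 cap genes summed to 3351, 3186, 3109 and 3314 TPM. The ratio was 1.17 in the control, 1.35 in the library labelled Tut1 KO and 1.28 in both Trp53-deleted libraries. Without the 3 base chaperone genes it was 1.22, 1.40, 1.32 and 1.32, so the control was lowest and the library labelled Tut1 KO highest either way.

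**Figure D3:**
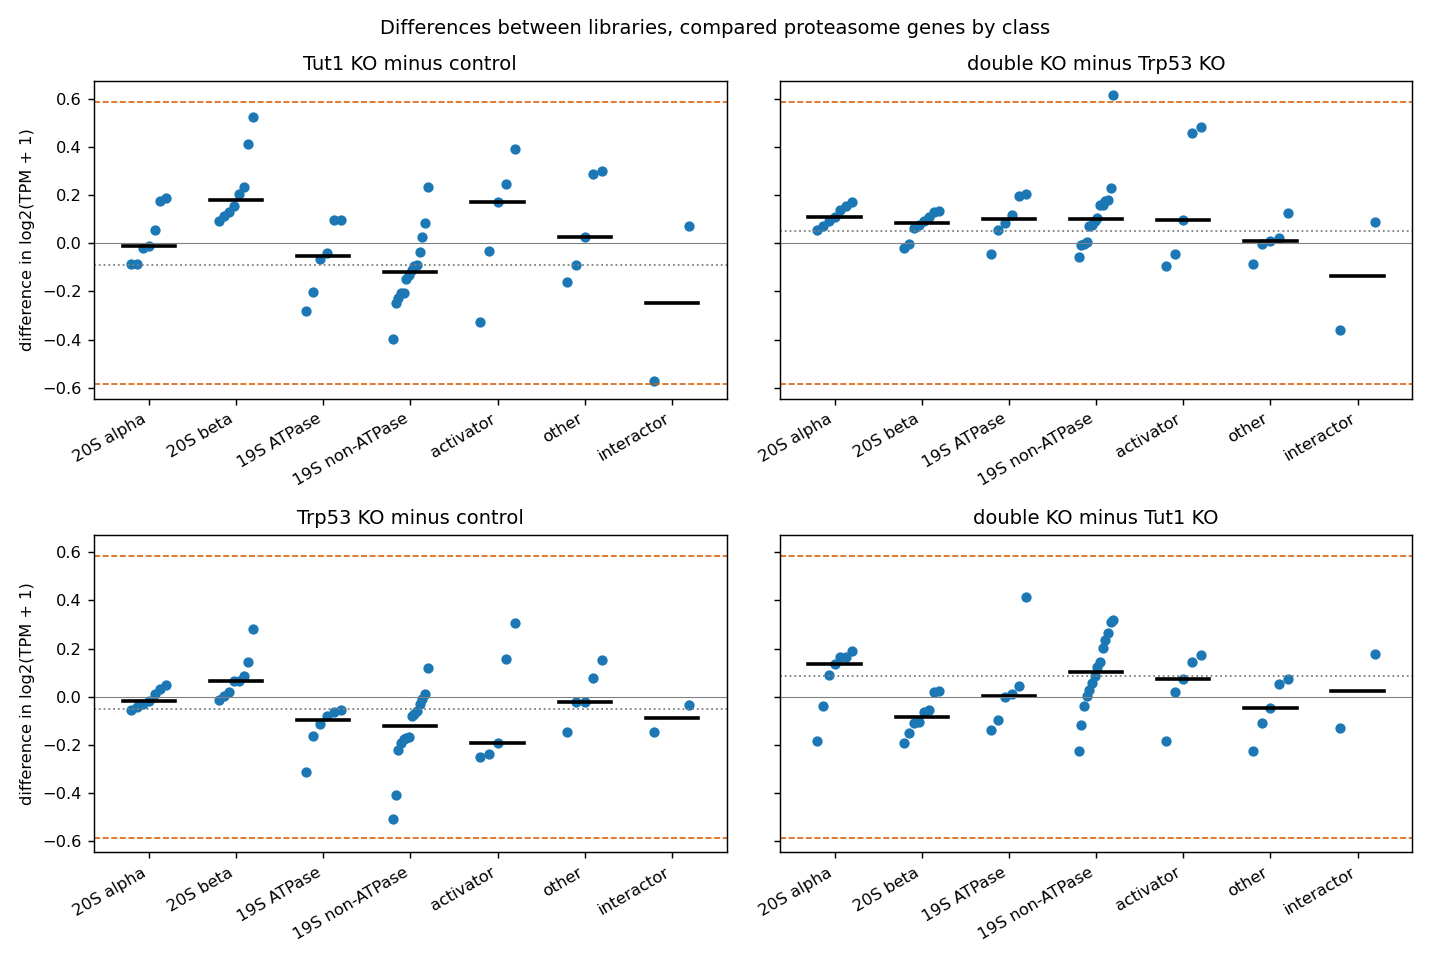
Difference in log2(TPM + 1) of each of the 47 compared proteasome genes in the 4 comparisons, by class, with 1 point per gene, black bars for class medians, dashed lines at 1.5-fold and a dotted line at the median of all genes compared. Psmd5 in double KO minus Trp53 KO is the only point past a dashed line, and the beta genes lie above 0 in Tut1 KO minus control.

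Base composition moved with these differences. Over the 47 proteasome genes, Spearman's rho of the Tut1 KO minus control difference with transcript GC content was 0.437, against 0.395 over 9305 genes compared with a known GC content. In double KO minus Tut1 KO it was -0.651 and -0.450, in double KO minus Trp53 KO -0.380 and -0.202, and in Trp53 KO minus control 0.127 and 0.164. These are descriptions over genes that share 4 libraries. The 24 proteasome genes at or above their median GC content of 49.7% had a median Tut1 KO minus control difference of 0.09, and the 23 below it -0.04. The compared alpha genes had a median GC content of 45.0% and the compared beta genes 51.3%. The ATPase genes, whose median difference was -0.05 against 0.18 for beta genes, had 50.7%, and the non-ATPase genes 48.8%. With transcript length, rho in Tut1 KO minus control was -0.310 over the proteasome genes and -0.332 over the 9305 genes. Psmc6, at 37.0% GC, moved from -0.28 to 0.02 in Tut1 KO minus control when the trend was removed, and Psmb3 from 0.41 to 0.30.

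**Figure D4:**
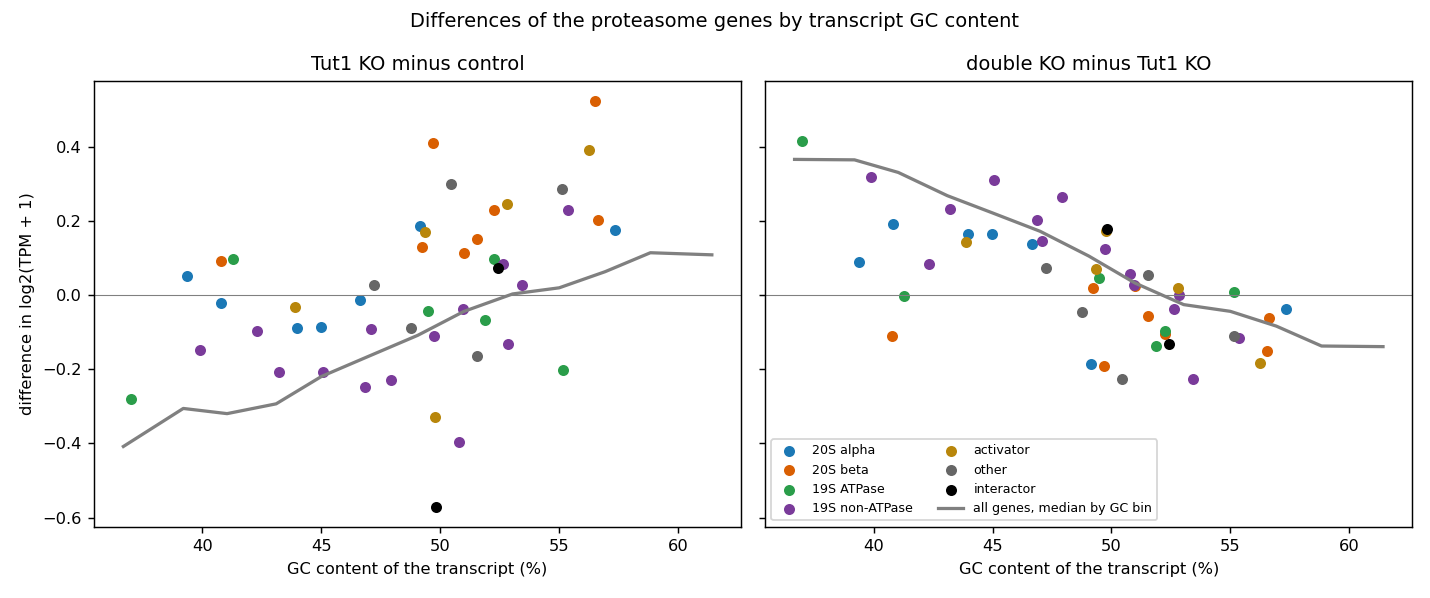
Difference in log2(TPM + 1) against transcript GC content (%) for the 47 compared proteasome genes, coloured by class, in Tut1 KO minus control (left) and double KO minus Tut1 KO (right), with the median of all genes by GC bin as a grey line. Points climb with GC content on the left (rho 0.437) and descend on the right (rho -0.651), as the grey lines do.

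Double KO minus Trp53 KO addresses the same deletion without Trp53. Both cultures received Cre-LNP but were of different floxed lines (Tut1f/f;p53f/f and p53f/f). A single proteasome gene reached 1.5-fold (1 of 47), where 8.00% of all genes compared did, and none reached 2-fold (3.22% of all genes). The double KO library was higher for 36 of 47 proteasome genes, against 58.6% of all genes, and the median difference was 0.09 against 0.05. The class medians lay close together, at 0.11 for alpha, 0.08 for beta, 0.10 for ATPase and 0.10 for non-ATPase genes. All 7 compared alpha genes were higher in the double KO library, with differences of 0.06 to 0.17, and 6 of 7 were when the GC and length trend was removed.

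The gene past 1.5-fold was Psmd5, which encodes a chaperone of the cap base and lies at chr2:34849734-34874968 (GRCm38). Its levels were 26.6, 22.9, 18.4 and 28.7 TPM, and the difference between the last pair was 0.61. The Trp53 KO library was the low one and the double KO library came closest to the control. Psmd5 passed by a narrow margin, and 4 alternatives (medians set to 0, quantile normalization, a pseudocount of 5 and the GC and length trend removed) put it below 1.5-fold, at 0.52 to 0.57. Psmd10 (gankyrin), a base chaperone known to promote p53 turnover, lies on chromosome X and had 37.1, 34.7, 32.9 and 36.8 TPM, within 1.13-fold over the 4 libraries. Psme2b and Psme2, described with the activators, came next, followed by Psmd6 and Psmc2, a lid and an ATPase gene, at 0.23 and 0.21.

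In the double KO library 11 of the 47 genes were lower. Psmc3ip was lower by a difference of -0.36, so both comparisons for Tut1 put it lower in the library labelled as deleted, and it was not past 1.5-fold in either. Psmg1, a chaperone of alpha ring assembly, had 65.4, 58.3, 64.3 and 60.5 TPM, a difference of -0.09. Psme1, Psmd4 and Psme4 had differences of -0.10, -0.06 and -0.04.

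Trp53 KO minus control addresses deletion of Trp53 with Tut1 left in place, between cultures that also differ in floxed allele and in treatment. None of the 47 proteasome genes reached 1.5-fold, where 8.55% of all genes compared did, and none reached 2-fold (3.93% of all genes). The Trp53 KO library was higher for 16 of 47, against 40.1% of all genes, and the median difference was -0.03 against -0.05. All 6 ATPase genes were lower in the Trp53 KO library (median -0.10), 12 of 14 non-ATPase genes were lower (median -0.12), and 7 of 8 beta genes were higher (median 0.07). With the GC and length trend removed, 1 of 6 ATPase genes and 4 of 8 beta genes were higher.

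Psmd5 had the lowest difference in that comparison, at -0.51, followed by Psmd9 at -0.41. Psmc3, an ATPase, had 245, 212, 197 and 214 TPM, a difference of -0.31, and the control was above all 3 other libraries. All 3 base chaperone genes were lower in the Trp53 KO library than in the control (median -0.41), under every scaling tried. They were also lower in the library labelled Tut1 KO than in the control (median -0.21), under the same scalings. Psmb2, a structural beta gene, was higher by 0.14, with 243, 263, 268 and 267 TPM.

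Double KO minus Tut1 KO addresses deletion of Trp53 when Tut1 is also deleted by label. Both cultures received Cre-LNP but were of different floxed lines (Tut1f/f;p53f/f and Tut1f/f). None of the 47 proteasome genes reached 1.5-fold, where 10.9% of all genes compared did, and none reached 2-fold (3.99% of all genes). The double KO library was higher for 28 of 47, against 60.4% of all genes, and the median difference was 0.02 against 0.09. The alpha genes had a median of 0.14, with 5 of 7 higher, the beta genes of the same core -0.08, with 2 of 8 higher, the ATPase genes 0.00, with 3 of 6 higher, and the non-ATPase genes a median of 0.10, with 11 of 14 higher. For the latter, 7 of 14 were higher when medians were set to 0 (median 0.02) and 7 of 14 under quantile normalization (median 0.04). Of the ATPase genes, 1 of 6 was higher with medians set to 0 (median -0.08) and 2 of 6 under quantile normalization (median -0.05). With the GC and length trend removed, 4 of 6 ATPase genes were (median 0.05). The beta median was 0.05, with 6 of 8 higher, when the GC and length trend was removed, so the sign of the beta genes turned with that correction. The 4 comparisons share libraries in pairs, and their values are given side by side for that reason.

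The 5 largest positive differences in this last comparison were in cap genes whose GC content was below the proteasome median. Psmc6 had a difference of 0.42, which was 0.14 with the GC and length trend removed. Psmd11, a lid gene with 39.9% GC, had 69.9, 63.0, 69.5 and 78.8 TPM and a difference of 0.32. Psmd12, another lid gene, had 143, 121, 137 and 146 TPM and a difference of 0.27. The library labelled Tut1 KO was the lowest and the double KO library the highest for all 3. Psmd5 and Psmd14 had differences of 0.31 and 0.23. Psmd13, a lid gene, had a difference of -0.23, with 149, 152, 130.4 and 129.7 TPM, the control and Tut1 KO libraries lying above the Trp53-deleted pair. Psma5, an alpha gene, had 225, 256, 216 and 225 TPM and a difference of -0.18. A processed pseudogene of it, Psma5-ps, was the only one of 5 Psm pseudogenes above 1 TPM, with 21.3, 26.8, 32.0 and 24.2 TPM, and reads of the pair may have been divided between them.

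The induced beta subunits were examined because interferon raises them in place of the constitutive catalytic subunits, which makes the immunoproteasome. Psmb10, which takes the place of Psmb7, had 19.1, 27.9, 23.4 and 25.0 TPM. The control was the lowest library, and the Tut1 KO minus control difference of 0.52 was the highest of any proteasome gene in that comparison, or 0.32 with the GC and length trend removed. Psmb8, which takes the place of Psmb5, had 1.10, 0.791, 1.76 and 2.29 TPM, and Psmb9, which takes the place of Psmb6, had 1.78, 2.10, 0.724 and 0.713 TPM. Psmb8 was thus higher and Psmb9 lower in the Trp53-deleted pair, at levels near 1 TPM for which the depth is unknown. Psmb11 was under 0.1 TPM throughout. The 3 induced genes made up 1.87%, 2.36%, 2.19% and 2.27% of the summed TPM of induced and constitutive catalytic genes, so constitutive transcripts prevailed in every library.

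Tap1, the neighbour of Psmb9, encodes a subunit of the peptide transporter of antigen presentation. It had 5.92, 9.28, 2.67 and 3.13 TPM, so both genes were lower in the Trp53 KO and double KO libraries than in the other pair. The annotated genes overlap on opposite strands of chromosome 17, where Psmb9 spans chr17:34181987-34187764, and the labels name a kit that keeps strand. Whether counting used it is not given in the sources used here, and without it reads of the shared stretch cannot be told apart. The class I genes H2-K1 (55.9, 48.9, 88.2 and 69.5 TPM) and H2-D1 (25.0, 23.2, 41.2 and 34.6 TPM) were higher in the Trp53-deleted pair. Only that pair came from lines with floxed p53 alleles, so Trp53 deletion and floxed line cannot be told apart. The 10 interferon response genes summed to 251, 257, 309 and 281 TPM, and 2 of them stayed under 1 TPM throughout.

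**Figure D5:**
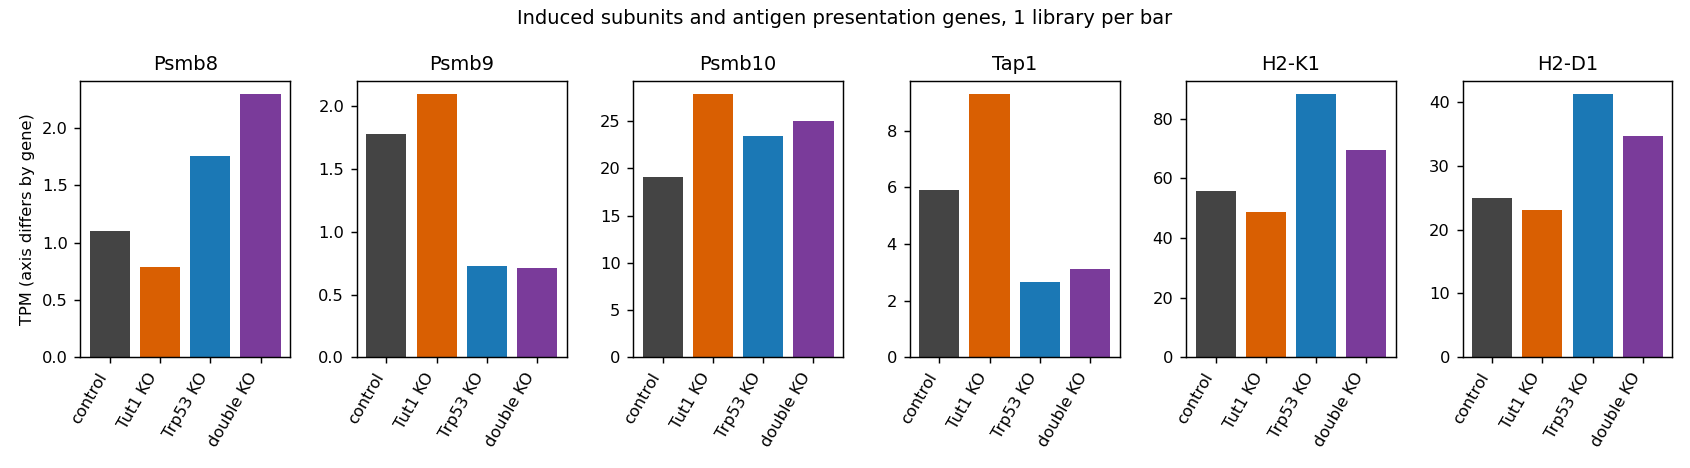
TPM of the induced subunit genes Psmb8, Psmb9 and Psmb10, of Tap1 and of the class I genes H2-K1 and H2-D1, with 1 bar per library and a separate axis for each gene starting at 0. Psmb9 and Tap1 are lower, and Psmb8, H2-K1 and H2-D1 higher, in the Trp53 KO and double KO libraries than in the other pair.

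Among the activators, which open the core without the 19S cap, the ring partners Psme1 and Psme2 are also raised by interferon. Psme1 had 42.4, 56.0, 52.7 and 49.2 TPM, with the control lowest and differences of 0.39 in Tut1 KO minus control and 0.31 in Trp53 KO minus control. Psme2 had 60.2, 71.5, 52.5 and 72.5 TPM, with the Trp53 KO library lowest and a difference of 0.46 in double KO minus Trp53 KO. In the other comparisons the medians of the activators were 0.10 (3 of 5 higher, double KO minus Trp53 KO), -0.19 (2 of 5, Trp53 KO minus control) and 0.07 (4 of 5, double KO minus Tut1 KO). The last turned sign, with 2 of 5 higher, when medians were set to 0 (median -0.01) and under quantile normalization (median -0.02). Psme1 and Psme2 thus did not follow each other across the libraries. Psme2b, a near-identical copy of Psme2 without introns, had 36.3, 41.0, 30.6 and 43.1 TPM, in the same order as Psme2, and the division of reads between the copies is uncertain. Their sum was 96.4, 113, 83.1 and 116 TPM.

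Psme3, a nuclear activator known to promote turnover of p53, had 135, 107, 113 and 121 TPM. The control was above the 3 Cre-treated libraries, with differences of -0.33 and -0.25 against it. Psme4, the large single-chain activator, had 28.8, 28.2, 32.3 and 31.3 TPM, within 1.14-fold. Psmf1, the inhibitor, was lowest of the regulators with 16.8, 15.8, 15.1 and 15.2 TPM.

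The chaperones of core assembly lay within 1.5-fold in all comparisons. Psmg2, the partner of Psmg1, had 78.5, 79.9, 77.2 and 84.3 TPM. The second pair, Psmg3 and Psmg4, was highest in the library labelled Tut1 KO, with 52.1, 64.4, 55.1 and 55.0 TPM for Psmg3 and 67.1, 82.0, 74.7 and 75.9 TPM for Psmg4. Their Tut1 KO minus control differences were 0.30 and 0.29, and the median of the 4 core chaperones, 0.16 (3 of 4 higher), was -0.01 (2 of 4) with the GC and length trend removed. Psme3ip1, whose protein binds Psme3, had 37.5, 39.5, 33.8 and 36.0 TPM. Psmb5, Psmd1, Psme2b and Psmg3 share exons with another annotated gene on the same strand, and 13 of the 51 genes overlap a gene on the opposite strand, which leaves their values uncertain where reads were shared.

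Genes of the ubiquitin and proteasome pathway outside the symbol rule were given by a list of 30, of which 29 were found and 26 reached the minimum. In Tut1 KO minus control 3 were higher by 1.5-fold or more and as many lower (12.3% of all genes), none differed between double KO and Trp53 KO (8.00%), 1 was lower in Trp53 KO minus control (8.55%) and 3 were lower in the double KO than the Tut1 KO library (10.9%). Median Tut1 KO minus control differences were -0.21 for associated subunits, -0.19 for assembly factors, 0.25 for the pair Nfe2l1 (0.88) and Ngly1 (-0.38), -0.44 for shuttles, 0.07 for ubiquitin and its activation, -0.20 for the unfoldase and -0.15 for the 1 compared adaptor. Paaf1, a base chaperone, was not analysed here.

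The partners that sit in the particle or build it included genes past 1.5-fold. Sem1, the smallest lid subunit, had 154, 261, 173 and 161 TPM, with only the library labelled Tut1 KO apart from the rest and a difference of 0.76 from the control and -0.70 in double KO minus Tut1 KO. Adrm1, a ubiquitin receptor of the cap, had 87.6, 85.6, 71.5 and 87.5 TPM. Pomp, the chaperone of the half-formed core, had 184, 199.6, 171 and 199 TPM, and neither it nor Adrm1 reached 1.5-fold. Fbxo7, a ubiquitin ligase component that binds the inhibitor Psmf1, had 17.8, 8.85, 7.68 and 9.43 TPM, so that the control stood above the 3 Cre-treated libraries, with differences of -0.94 and -1.12 for the single KO libraries.

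Nfe2l1, the factor named at the outset, had 17.5, 33.0, 11.7 and 11.8 TPM. It was highest in the library labelled Tut1 KO, by 0.88 against the control, and the double KO minus Tut1 KO difference was -1.40. The 6 proteasome genes with an antioxidant response element core had Tut1 KO minus control differences between -0.40 (Psmd9) and 0.20 (Psmb5). Its processing enzymes Ngly1 and Ddi2 were low, with 15.6, 11.8, 12.1 and 12.3 TPM for Ngly1 and under 10 TPM throughout for Ddi2.

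Among the carriers and the ubiquitin genes, Ubqln2, which ferries tagged proteins to the cap, had 104, 66.9, 84.1 and 93.5 TPM, lowest in the library labelled Tut1 KO, with a difference of -0.62 from the control. Rps27a, which encodes ubiquitin fused to a ribosomal protein, had 875, 2420.3, 1145 and 1718 TPM and was highest in the library labelled Tut1 KO, by 1.47 against the control. The polyubiquitin gene Ubb (1036, 1080.3, 976 and 994 TPM) stayed within 1.5-fold in all 4 comparisons, as did Vcp, the unfoldase that extracts tagged proteins (362, 349.8, 308 and 325 TPM).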

How the data were processed

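RNA of 4 cultures was measured, 1 library per group. The authors deposited 1 table of TPM values per gene, and the submitters' processing notes name Trimmomatic, HISAT2, StringTie and mm10 without versions or roles. The labels name a stranded short-read kit and the series text long reads, so the depth, and with it the precision of low values, is unknown. Replicates were absent, so no test was made. Values were taken as log2(TPM + 1), and fold changes are on that scale, which understates those of low genes. Genes with at least 10 TPM in at least 1 library were compared, and 1.5-fold and 2-fold served as thresholds. A gene was called higher or lower by size only.

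Ensembl IDs linked the table to GENCODE M21 (GRCm38) for coordinates, GC content and transcript length, and promoters were those of RefSeq (GRCm38.p6). Named genes were the highest and lowest of each class, those past 1.5-fold, the 5 largest differences per direction and comparison, and listed subunits of known role. Members, lists and roles were chosen with earlier results of these data known. Some listed partner genes are counted but not reported here by name. Alternatives were other pseudocounts, minimums and scalings, removal of mitochondrial and ribosomal genes, removal of a GC and length trend, and a stricter gene set. Scripts used Python 3.11.15 with scipy 1.17.1, pandas 2.3.3, matplotlib 3.10.9 and numpy 2.4.6 and were tested on simulated data.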

Additional observations from a re-analysis of the deposited data

Results flagged for a closer look

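Psmd5, the chaperone of the cap base, differed in opposite directions between the 2 comparisons for Tut1. Its difference was -0.21 while Trp53 was intact (library labelled Tut1 KO against control) and 0.61 where Trp53 was deleted (double KO against Trp53 KO), and the first minus the second was -0.82. With 1 library per group this was not tested. Of the 47 proteasome genes 1 (2.13%) had such opposite signs with at least 1 difference of 1.5-fold, against 1610 of 9314 genes compared (17.3%).

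Among the listed partners, 3 of 26 (11.5%) did. Fbxo7 had -0.94 and 0.26, a gap of -1.20. Sem1 had 0.76 and -0.11, a gap of 0.86. Ubqln2 had -0.62 and 0.15, a gap of -0.77. None of these differences was tested, and the 2 comparisons run in opposite directions of sex-linked expression.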

How the results depend on the processing

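No paired analysis was possible because each group was 1 library and no result came from a test. The median difference of the proteasome genes ranged from -0.03 to 0.08 in Tut1 KO minus control, from 0.04 to 0.09 between double KO and Trp53 KO, from -0.08 to 0.02 between Trp53 KO and control, and from -0.06 to 0.10 between double KO and Tut1 KO. Its sign turned when the median of all genes was set to 0 (0.080 for Tut1 KO minus control, 0.020 for Trp53 KO minus control, -0.062 for double KO minus Tut1 KO), under quantile normalization (0.046 for the first of these, -0.016 for the last) and without mitochondrial and ribosomal genes (0.0061 for the first). The count past 1.5-fold became 1 in Tut1 KO minus control when medians were set to 0 or under quantile normalization (Psmb10) and with the GC and length trend removed (Psmc3ip). It became 0 in double KO minus Trp53 KO after medians were set to 0, after quantile normalization, after the GC and length trend was removed, and where the pseudocount was 5. With a minimum of 1 TPM or none, which adds low genes, it became 1 (Psmb9) for Trp53 KO minus control and 2 (Psmb8 and Psmb9) for double KO minus Tut1 KO. Of the others, 63 were equal counts or medians that moved by less than 0.1 without taking the opposite sign, a tolerance wider than the medians themselves. The Tut1 KO minus control median with no minimum was among them, at 0. The stricter set of 40 genes and the trend removal for single genes were chosen after seeing the data. That removal moved 99 differences of the compared proteasome and partner genes by at least 0.1 and left 193 within it, and the cause was not tested. Depth limits the values near 1 TPM.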
